A study of Mus musculus with 16 samples.

Results

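A set of 39 genes of the synaptic vesicle and its release machinery was followed in proprioceptive sensory neurons of the mouse between embryonic day (e) 15.5 and postnatal day (p) 1. The genes were taken from a list of named presynaptic genes, and all 39 were found among the 49671 genes of the count tables. They were measured in proprioceptor wells, meaning wells of a plate with at least 10000 unique molecular identifiers (UMIs, counts of tagged mRNA molecules), Etv1 at 300 or more CPM (counts per 1000000 UMIs), and at least 1 UMI each of Pvalb and Ntrk3. This rule kept 700 of 1536 wells, 344 of 960 at e15.5 and 356 of 576 at p1.

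Proprioceptors carry signals about muscle length and force from the limb and trunk to the spinal cord, where their terminals release glutamate onto motor neurons and interneurons. At a terminal, a vesicle is docked by active zone scaffolds and primed, and calcium binding to a synaptotagmin lets the SNARE proteins of vesicle and plasma membrane fuse. The vesicle membrane is then taken back by endocytosis, and the NSF and SNAP proteins separate the spent SNARE complexes.

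The cells came from dissociated dorsal root ganglia and were processed by CEL-Seq2, which counts the 3′ ends of transcripts with UMIs, in 10 libraries of 96 wells at e15.5 and 6 at p1. The e15.5 cells were sorted by fluorescence from PvtdTom embryos, in which tdTomato follows the parvalbumin promoter. The p1 cells were picked by hand from Trpv1Cre; PvFlp; Ai65 and PvCre; Ai14 pups. The former line marks only cells in which both recombinases were active, the latter all cells with a history of parvalbumin expression, and the labels give both lines for every p1 library. Age, mouse line and way of isolation therefore cannot be told apart, and fewer cells of a kind cannot be told from less RNA per cell within a library's sum. The paper dissected thoracic and lumbar ganglia separately at both ages, and used Trpv1Cre alleles of different origin (Basbaum and Hoon) at p1. It describes the Trpv1Cre; PvFlp; Ai65 cells as a subset innervating back muscles. Level and line may thus differ from library to library, and the labels do not assign them. Nothing in the sources used here ties a library to an animal. The p-values therefore measure the spread between libraries, which may be partly technical and may hold level and line.

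Proprioceptor wells numbered 11 to 71 per library at e15.5 and 11 to 83 at p1, with 1396903 to 8298490 and 176499 to 8772465 summed UMIs. Runx3, a proprioceptor transcription factor the rule did not use, was found in 96.8% of e15.5 and 98.6% of p1 proprioceptor wells, against 32.8% of the 369 e15.5 wells rich in collagen transcripts. No 2 of the 1240 wells with at least 10000 UMIs had identical counts. Etv1 lay between 300 and 400 CPM in 11 proprioceptor wells and between 200 and 300 CPM in 22 other wells. The p1 library 3 stood apart, with a median of 12171 UMIs per proprioceptor well against 33912.5 to 88577 in the other p1 libraries, and results that turn on it are given with and without it. Across libraries the 8 glia markers summed to 243 to 1146 CPM at e15.5 and 230 to 834 CPM at p1. The median mitochondrial share of a library's proprioceptor wells was 3.80 to 6.03% at e15.5 and 8.85 to 13.1% at p1. The 5 sensory neuron markers summed to 4602 to 5808 CPM at e15.5 and 2852 to 3757 CPM at p1, and over all proprioceptor wells of an age none of the 8 glia markers was at 0. Fits without glia-marked wells, and with the study's quantile filters on UMIs, genes and mitochondrial share, were run as alternatives. Beyond these alternatives, the part of the marker levels and mitochondrial share in the results below was not tested.

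Of the 39 genes 27 rose between the ages, 6 fell and 6 did not pass the test. Summed over the 39, their transcripts took 7760 to 9118 CPM in the e15.5 libraries (median 8403) and 13353 to 15139 CPM in the p1 libraries (median 14029), with no overlap. The counts come from edgeR's quasi-likelihood test at an adjusted p of 0.05 (Benjamini-Hochberg over 13979 genes), which called 62.6% of all genes tested, 30.7% as higher and 31.9% as lower. The median log2 fold change was 0.81 for the 39 genes and -0.03 for all genes tested. The 39 genes were chosen with earlier results of these data known, so this contrast describes the list and does not test it. For the 72 tested genes of a wider pathway list, given below, the median was -0.03. At least 2-fold rises were found for 13 genes and at least 2-fold falls for 3. By CPM of total UMIs, without the TMM scaling of the calls, every p1 library lay above every e15.5 library in 18 of the 39. The same held for 7.30% of all genes tested. In 5 every p1 library lay below, as did 19.9% of all genes tested. These 3 counts were also 18, 5 and 16 overlapping without p1 library 3. Scaled by total UMIs in place of TMM, the median of all genes tested moved to -0.26, and 23 of the 39 were called higher and 9 lower, against 3032 and 6149 of all genes.

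**Figure D1:**
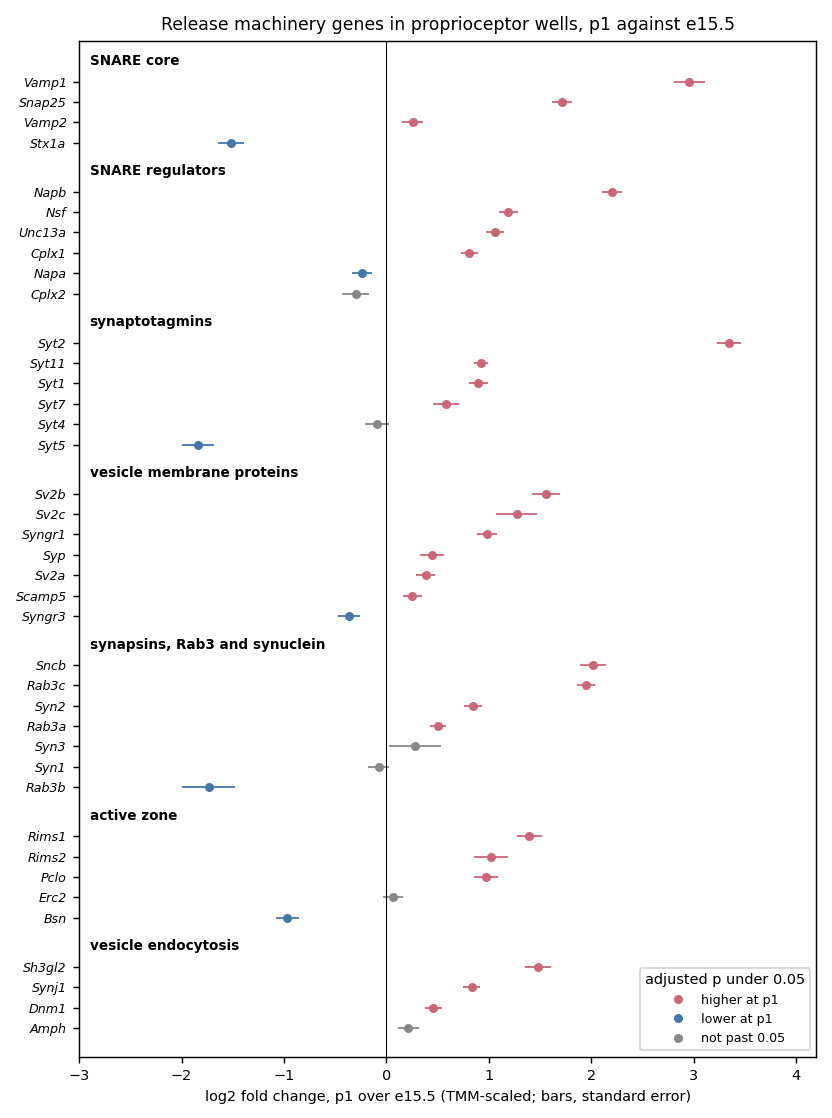
Log2 fold change of each of the 39 genes, p1 over e15.5, in summed UMIs of proprioceptor wells (10 and 6 libraries), grouped by role, with standard errors. Points right of 0 were higher at p1. Syt2 and Vamp1 lie farthest right, at 3.35 and 2.96, and Syt5, Rab3b and Stx1a farthest left, at -1.84, -1.74 and -1.52.

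For 31 of the 39 genes RefSeq gave 39 promoters, the 250 bases before to 50 after a transcript start in GRCm38.p6. Snap25, Syt5, Syn3, Syt7, Syngr3, Syt4, Rims2 and Vamp2 had none in the table. The bases before the start are shown for the 3 genes that rose most and the 3 that fell most among those with a promoter, 5′ to 3′ along the gene, with capitals for any of 6 motifs searched on both strands.
Syt2 (rose), chr1:134646362-134646611, plus strand: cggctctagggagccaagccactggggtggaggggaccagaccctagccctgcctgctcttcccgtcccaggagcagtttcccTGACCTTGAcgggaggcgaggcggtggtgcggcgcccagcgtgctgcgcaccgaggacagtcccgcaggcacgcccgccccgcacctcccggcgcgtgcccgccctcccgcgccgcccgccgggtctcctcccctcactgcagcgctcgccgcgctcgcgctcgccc
Vamp1 (rose), chr6:125215331-125215580, plus strand: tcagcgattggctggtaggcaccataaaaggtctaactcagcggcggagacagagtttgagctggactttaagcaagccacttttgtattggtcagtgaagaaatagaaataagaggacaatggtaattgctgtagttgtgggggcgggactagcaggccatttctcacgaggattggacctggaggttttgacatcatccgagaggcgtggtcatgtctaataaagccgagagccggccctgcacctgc
Napb (rose), chr2:148732421-148732670, minus strand: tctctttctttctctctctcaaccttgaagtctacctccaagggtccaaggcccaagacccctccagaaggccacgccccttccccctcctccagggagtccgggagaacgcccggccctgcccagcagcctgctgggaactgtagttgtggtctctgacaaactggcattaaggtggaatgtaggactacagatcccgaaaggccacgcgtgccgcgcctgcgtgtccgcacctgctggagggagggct
Rab3b (fell), chr4:108878820-108879069, plus strand: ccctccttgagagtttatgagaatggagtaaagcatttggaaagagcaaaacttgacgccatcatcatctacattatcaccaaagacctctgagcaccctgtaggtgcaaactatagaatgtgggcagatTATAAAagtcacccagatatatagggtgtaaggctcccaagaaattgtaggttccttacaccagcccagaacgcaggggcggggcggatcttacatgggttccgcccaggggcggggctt
Stx1a (fell), chr5:135023232-135023481, plus strand: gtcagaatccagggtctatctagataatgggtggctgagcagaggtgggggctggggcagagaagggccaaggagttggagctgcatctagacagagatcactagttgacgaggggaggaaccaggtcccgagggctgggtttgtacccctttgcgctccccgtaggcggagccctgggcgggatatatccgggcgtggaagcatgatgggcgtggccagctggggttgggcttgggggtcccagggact
Bsn (fell), chr9:108190384-108190633, minus strand: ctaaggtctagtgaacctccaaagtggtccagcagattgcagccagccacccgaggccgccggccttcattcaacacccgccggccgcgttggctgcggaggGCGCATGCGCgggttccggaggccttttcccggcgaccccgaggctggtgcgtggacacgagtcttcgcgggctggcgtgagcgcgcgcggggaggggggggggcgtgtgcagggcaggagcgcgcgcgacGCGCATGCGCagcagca
The capitals in Syt2 match the estrogen-related receptor site TCAAGGTCA on the opposite strand, 167 bases before the start shown. This motif was in 1 of the 39 promoters and in 0.423% of all 32851 promoters. A further Syt2 promoter, with chr1:134709050-134709299 before its start, held none of the 6 motifs. Which Syt2 start was used in these cells was not tested. The capitals in Bsn match the NRF1 site GCGCANGCG, each on both strands with an overlap, 148 and 17 bases before the start. This motif was also in the promoters of Nsf, Pclo, Syn1, Syngr1 and Syp, together 15.4% of the 39 against 6.25% of all. Rab3b held the TATA box letters TATAAA 120 bases before its start, as did 13.6% of all promoters. The cyclic AMP response element TGACGTCA was in the promoters of Napa, Sh3gl2 and Syn1 (1.79% of all promoters). The left part of the RE1 silencer element, TTCAGCACC, was in Syn1 and Unc13a (0.371% of all), and the E-box CACGTG in Napa, Nsf and Sv2b (7.15% of all). These 6 sets of letters were not in the windows of Vamp1, Napb and Stx1a. Genes with the same motif did not share a direction. Of those with the cyclic AMP response element, Napa fell, Sh3gl2 rose and Syn1 did not pass.

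The SNARE core consists of the plasma membrane proteins Snap25 and Stx1a and the vesicle proteins Vamp1 and Vamp2. Of its 4 genes 3 rose and Stx1a fell. Vamp1 (chr6:125215551-125245964, plus strand) lay at 40.3 to 62.5 CPM at e15.5 (median 50.5) and at 249 to 629 CPM at p1 (median 337), a 7.77-fold rise (log2 fold change 2.96 ± 0.15 SE, adjusted p = 3.17e-12). Its highest p1 value, 629 CPM from 111 UMIs, was that of p1 library 3, and the other p1 libraries reached 384 CPM at most. Even the lowest p1 library lay well above the highest e15.5 library, and without p1 library 3 the log2 fold change was 2.81. Snap25 (chr2:136713453-136782428, plus strand) had 285 to 447 CPM at e15.5 (median 342) and 799 to 1134 CPM at p1 (median 968), a log2 fold change of 1.71 ± 0.10 (adjusted p = 2.06e-11). Vamp2, the vesicle SNARE of most forebrain synapses, had 373 to 533 CPM (median 461) and 366 to 572 CPM (median 472), and its ranges overlapped over nearly their whole length. Its log2 fold change of 0.26 ± 0.10 passed with an adjusted p of 0.0363, but not without p1 library 1, 2 or 3 (0.21 without library 3, adjusted p = 0.0911), without e15.5 library 3, 4, 6, 7 or 8, nor with total UMI scaling (0.03, adjusted p = 0.829). It also did not pass with no filter on low counts (edgeR adjusted p = 0.281), the library number as a block (0.0538) or wells thinned to 10000 UMIs (0.132). The same held for wells of at least 20000 UMIs (0.0744) and the quantile filters (0.0582). Stx1a (chr5:135023482-135051100, plus strand) went the other way, from 85.8 to 146 CPM (median 117) down to 24.1 to 39.7 CPM (median 36.3), with a log2 fold change of -1.52 ± 0.13 (adjusted p = 4.48e-09). No p1 library reached the lowest e15.5 library.

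**Figure D2:**
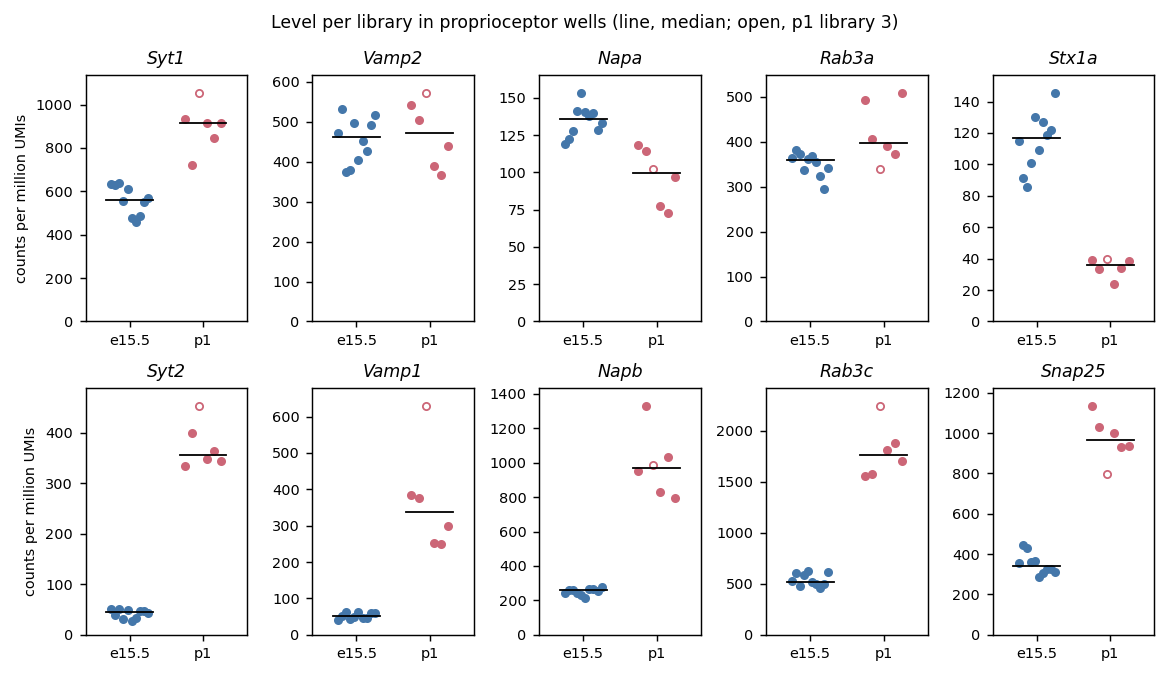
CPM of 10 of the genes in each library's proprioceptor wells, e15.5 in blue and p1 in red, with the median as a line and p1 library 3 as an open point. Syt2, Vamp1, Napb, Rab3c and Snap25 (lower row) separate the ages completely, Stx1a and Napa lie lower at p1, and Vamp2 and Rab3a overlap.

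Of the 6 genes that arm, brake or recycle the SNARE complex, 4 rose, Napa fell and Cplx2 did not pass. Napb (chr2:148693985-148732467, minus strand), the brain form of the SNAP adaptor that brings NSF to spent complexes, went from 216 to 280 CPM (median 259) to 797 to 1329 CPM (median 970), with a log2 fold change of 2.20 ± 0.10 (adjusted p = 7.34e-13). Its ubiquitous counterpart Napa had 119 to 153 CPM (median 136) and 73.0 to 119 CPM (median 99.4), a log2 fold change of -0.24 ± 0.10 (adjusted p = 0.0425). Every p1 library lay above every e15.5 library for Napb, and just below for Napa. Napa no longer passed when wells under 20000 UMIs were left out (adjusted p = 0.0530), without glia-marked wells (0.0708), or when e15.5 library 4, 5, 6, 7, 8 or 10 or p1 library 4, 5 or 6 was left out (0.0524 to 0.155). Nor did Napa pass with the library number as a block (edgeR adjusted p = 0.203). Nsf, the ATPase itself, had 140 to 164 CPM (median 151) and 219 to 402 CPM (median 293), a log2 fold change of 1.19 ± 0.10 (adjusted p = 2.24e-09). Unc13a, a priming factor, had 45.2 to 59.8 CPM (median 54.0) and 68.0 to 100 CPM (median 95.7), a log2 fold change of 1.06 ± 0.09 (adjusted p = 2.45e-09). Cplx1, a complexin that binds assembled SNAREs, had 823 to 988 CPM (median 883) and 1182 to 1853 CPM (median 1250), a log2 fold change of 0.81 ± 0.08 (adjusted p = 6.26e-08). All p1 libraries lay above all e15.5 libraries for these 3 genes. Cplx2 had 29.5 to 52.5 CPM (median 41.0) and 20.6 to 37.3 CPM (median 26.9), and its log2 fold change of -0.30 ± 0.14 missed the threshold (adjusted p = 0.0585). Cplx2 was called lower with total UMI scaling (-0.53, adjusted p = 0.0021), with no filter on low counts (adjusted p = 0.0193), with the quantile filters on wells (0.0345), and without e15.5 library 1, 2 or 3 or p1 library 6 (0.0198 to 0.0412).

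Synaptotagmins bind calcium and set the speed of release. Syt2 (chr1:134646677-134762593, plus strand), a fast sensor, had the largest rise of the 39 genes. It lay at 27.6 to 51.5 CPM at e15.5 (median 45.2) and at 334 to 453 CPM at p1 (median 356), a 10.2-fold difference (log2 fold change 3.35 ± 0.12, adjusted p = 2.21e-14). The shallow p1 library 3 again gave the highest value, and without it the log2 fold change was 3.30. Syt1, the other main fast sensor, had 457 to 639 CPM (median 561) and 720 to 1054 CPM (median 916), a log2 fold change of 0.90 ± 0.09 (adjusted p = 4.34e-08). Syt11, which does not bind calcium, had 694 to 836 CPM (median 772) and 1088 to 1346 CPM (median 1254), a log2 fold change of 0.92 ± 0.07 (adjusted p = 5.39e-10). Syt7, a slow sensor, overlapped between the ages, with 50.6 to 97.8 CPM (median 72.2) and 75.2 to 119 CPM (median 99.3) and a log2 fold change of 0.58 ± 0.13 (adjusted p = 0.000553). Syt5 had the largest fall, from 51.9 to 90.9 CPM (median 73.5) to 11.1 to 34.0 CPM (median 17.0), a log2 fold change of -1.84 ± 0.16 (adjusted p = 5.80e-09). Its highest p1 value rested on 6 UMIs of p1 library 3, and the other p1 libraries stayed at or below 19.5 CPM. Syt4, which lacks a calcium-binding residue, had 177 to 315 CPM (median 281) and 177 to 253 CPM (median 209), with a log2 fold change of -0.09 ± 0.12 that did not pass (adjusted p = 0.50), but that became -0.33 with total UMI scaling and passed (adjusted p = 0.0195).

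Of the 7 vesicle membrane proteins 6 rose and Syngr3 fell. Among the SV2 glycoproteins, Sv2b had 68.4 to 140 CPM (median 98.6) and 164 to 287 CPM (median 262), a log2 fold change of 1.56 ± 0.14 (adjusted p = 8.72e-09). Sv2c had 63.0 to 164 CPM (median 122) and 151 to 385 CPM (median 231), a log2 fold change of 1.27 ± 0.20 (adjusted p = 1.43e-05). Sv2a had 321 to 494 CPM (median 401) and 373 to 510 CPM (median 467), a log2 fold change of 0.38 ± 0.10 (adjusted p = 0.00178). The ages did not overlap for Sv2b, but overlapped slightly for Sv2c and over most of the range for Sv2a, which did not pass with total UMI scaling (0.16, adjusted p = 0.15). Syngr1, a synaptogyrin, had 55.9 to 103 CPM (median 85.7) and 128 to 161 CPM (median 146), a log2 fold change of 0.98 ± 0.10 (adjusted p = 6.47e-08). Its relative Syngr3 had 190 to 248 CPM (median 215) and 108 to 191 CPM (median 150.0), a log2 fold change of -0.36 ± 0.11 (adjusted p = 0.0062). The 2 synaptogyrins thus moved in opposite directions. Syp, the classical vesicle marker synaptophysin, had 316 to 448 CPM (median 347) and 244 to 548 CPM (median 422), a log2 fold change of 0.44 ± 0.12 (adjusted p = 0.00244). Scamp5 had 67.9 to 93.3 CPM (median 83.1) and 45.3 to 94.7 CPM (median 83.4), a log2 fold change of 0.25 ± 0.09 (adjusted p = 0.0195) that did not pass without p1 library 6 (adjusted p = 0.0512). Both overlapped between the ages, and with total UMI scaling neither passed (adjusted p = 0.117 for Syp and 0.853 for Scamp5). With the library number as a block, Syp (edgeR adjusted p = 0.0533), Scamp5 (0.187) and Syngr3 (0.0532) did not pass. Scamp5 also did not pass with no filter on low counts (0.271) or with wells thinned to 10000 UMIs (0.209).

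Rab3 GTPases tether vesicles, and Rab3c had one of the highest CPM values of the list at both ages, although CPM of 3′ ends is not a length-corrected scale between genes. Rab3c went from 461 to 627 CPM (median 520) to 1554 to 2244 CPM (median 1760), a log2 fold change of 1.95 ± 0.09 (adjusted p = 7.79e-13). Rab3a had 295 to 383 CPM (median 359) and 340 to 509 CPM (median 398), a log2 fold change of 0.51 ± 0.08 (adjusted p = 1.63e-05). Rab3b fell from 28.8 to 56.5 CPM (median 39.2) to 0 to 18.3 CPM (median 9.56), a log2 fold change of -1.74 ± 0.26 (adjusted p = 9.56e-06). The 0 was that of p1 library 3, whose 176499 UMIs allow up to 17.0 CPM at a count of 0, and without it the log2 fold change was -1.72. Sncb, β-synuclein, rose from 88.2 to 127 CPM (median 103) to 193 to 453 CPM (median 369), a log2 fold change of 2.02 ± 0.13 (adjusted p = 9.05e-11). The synapsins, which hold the reserve pool of vesicles, did not move as a group. Syn2 had 145 to 193 CPM (median 176) and 227 to 303 CPM (median 273), a log2 fold change of 0.85 ± 0.09 (adjusted p = 5.84e-08). Syn1 had 215 to 344 CPM (median 279) and 176 to 278 CPM (median 220), a log2 fold change of -0.07 ± 0.10 (adjusted p = 0.554), which became -0.30 and passed with total UMI scaling (adjusted p = 0.0136). Syn3 was near the limit of detection at 2.88 to 10.5 CPM (median 4.59) and 3.27 to 11.3 CPM (median 5.23), and did not pass (log2 fold change 0.28 ± 0.25, adjusted p = 0.342).

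The active zone scaffolds Rims1, Rims2 and Pclo rose, Bsn fell and Erc2 did not pass. Rims1, which links Rab3 and calcium channels, had 49.4 to 75.7 CPM (median 66.5) and 117 to 221 CPM (median 147), a log2 fold change of 1.4 ± 0.12 (adjusted p = 7.54e-09). Rims2 had 22.2 to 41.3 CPM (median 33.1) and 28.3 to 83.0 CPM (median 51.2), a log2 fold change of 1.02 ± 0.16 (adjusted p = 2.12e-05), with the lowest p1 value in p1 library 3. The large scaffold Pclo, piccolo, had 237 to 395 CPM (median 349) and 493 to 667 CPM (median 541), a log2 fold change of 0.97 ± 0.12 (adjusted p = 4.70e-07). Its partner Bsn, bassoon, moved the other way without overlap, from 81.0 to 123 CPM (median 97.5) to 31.7 to 47.4 CPM (median 45.2), a log2 fold change of -0.97 ± 0.11 (adjusted p = 3.68e-07). Erc2 had 224 to 293 CPM (median 262) and 199 to 270 CPM (median 224), a log2 fold change of 0.06 ± 0.09 (adjusted p = 0.571). With wells thinned to 10000 UMIs it was 0.56 and passed (adjusted p = 0.0086).

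Of the 4 endocytosis genes none fell. Sh3gl2, endophilin A1, had 42.1 to 66.5 CPM (median 53.8) and 77.8 to 161 CPM (median 136), a log2 fold change of 1.48 ± 0.13 (adjusted p = 5.46e-09). Synj1, the lipid phosphatase that helps shed the clathrin coat, had 158 to 200 CPM (median 179) and 223 to 348 CPM (median 273), a log2 fold change of 0.83 ± 0.08 (adjusted p = 4.97e-08). Neither overlapped between the ages. Dnm1, the membrane-cutting GTPase dynamin, had 132 to 174 CPM (median 149) and 130 to 196 CPM (median 178), a log2 fold change of 0.46 ± 0.08 (adjusted p = 4.81e-05). Amph, amphiphysin, had 124 to 187 CPM (median 138) and 119 to 181 CPM (median 144), and its log2 fold change of 0.21 ± 0.10 did not pass (adjusted p = 0.0797), but passed without glia-marked wells (adjusted p = 0.0480) and without e15.5 library 5 (0.0253).

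A wider list of 77 other pathway genes held relatives and partners of the 39. Of its 72 tested genes 25 were higher at p1, 22 were lower and 25 did not pass, with a median log2 fold change of -0.03, that of all genes tested. Among those with the smallest adjusted p, Rims4 (log2 fold change 1.27 ± 0.14), Stxbp5l (1.68 ± 0.21), Itsn2 (1.13 ± 0.14), Unc13c (3.29 ± 0.44) and Atp6v1b2, a proton pump subunit (0.55 ± 0.07), rose. Stx2 (-1.74 ± 0.10), Rims3 (-1.20 ± 0.10), Syt16 (-1.81 ± 0.15) and Sh3gl3 (-1.86 ± 0.21) fell. Sh3gl3, a relative of Sh3gl2, lay at 8.43 to 16.6 CPM at e15.5 (median 14.3) and at 2.33 to 5.67 CPM at p1 (median 3.36), while Sh3gl2 rose.

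Within pairs and trios of related genes the shares of UMIs shifted, which needs no scaling between libraries. Vamp1 made up 7.88 to 14.2% of Vamp1 and Vamp2 UMIs at e15.5 (median 10.1%) and 39.5 to 52.4% at p1 (median 41.0%). Syt2 made up 5.26 to 8.86% of Syt1 and Syt2 UMIs (median 7.28%) and then 26.3 to 35.7% (median 28.8%). Napb went from 60.2 to 68.1% of Napa and Napb (median 66.2%) to 88.9 to 93.4% (median 91.1%). In these 3 pairs no library of one age reached the range of the other. Rab3c went from a median of 57.7% to 80.4% of the 3 Rab3 genes, while Rab3a went from 37.8% to 19.0% and Rab3b from 4.23% to 0.447%. Syngr1 went from a median of 28.7% to 50.7% of the 2 synaptogyrins, Syn2 from 37.3% to 53.2% and Syn1 from 61.1% to 45.7% of the 3 synapsins. Pclo went from a median of 77.6% to 92.3% of Bsn and Pclo, and Cplx1 from 95.7% to 97.9% of the 2 complexins. Sv2a went from a median of 64.6% to 48.1% of the SV2 genes, and these shares too did not overlap. The ranges overlapped for Sv2b (median 16.2% and 27.2%), Sv2c (17.8% and 23.7%), Syn3 (0.986% and 0.972%) and the Rims genes, of which Rims1 made up 65.8% and 70.1%. No test was run on the shares, since they follow from the same counts as the fold changes.

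**Figure D3:**
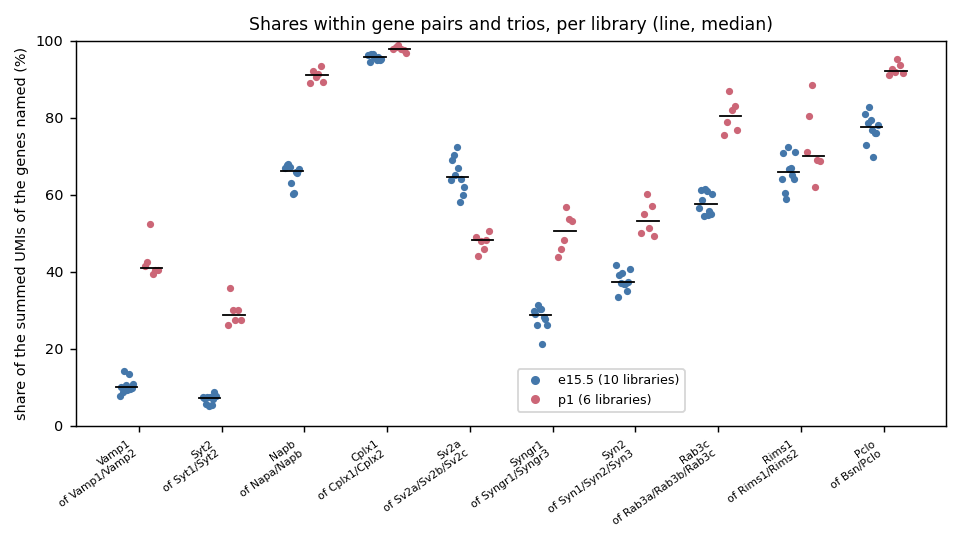
Share of one gene in the summed UMIs of its pair or trio, in percent, for each of the 10 e15.5 (blue) and 6 p1 (red) libraries, with medians as lines. The ages separate in 9 of the 10 groups shown and overlap for Rims1.

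At e15.5 the same libraries held wells of other cells. Connective tissue wells, with Col1a1, Col1a2 and Col3a1 together at 5000 CPM or more and Avil under 100 CPM, numbered 369, and 9 libraries had at least 5 of them and of proprioceptor wells. Over all 39 genes they summed to 649 to 1322 CPM (median 784) in the 10 libraries. Fitted with the library as a block, all 38 of the genes that could be tested were higher in proprioceptor wells, in a comparison that called 39.1% of 11784 genes higher and 77.3% in either direction. The genes were picked as presynaptic and the wells as low in Avil, so this direction was largely set in advance. Genes near 0 in connective tissue wells, such as Rims2 (0 to 3.68 CPM), could pass the low-count filter through their proprioceptor sums alone. The median log2 fold change was 3.98, against 0.01 for all genes tested, 33 genes differed at least 4-fold and 19 at least 16-fold. Syn3 was too low to be tested, with medians of 4.82 CPM in proprioceptor and 5.41 CPM in connective tissue wells, and was higher in 5 of 9 libraries. Snap25 showed the largest difference (285 to 447 CPM against 4.93 to 50.2 CPM, log2 fold change 4.97 ± 0.20), followed by Pclo (4.94 ± 0.17), Syngr3 (4.93 ± 0.15), Syn2 (4.92 ± 0.22) and Cplx1 (4.86 ± 0.12). In each, every proprioceptor sum lay above every connective tissue sum. At the other end stood Napa (119 to 153 against 86.6 to 125 CPM, log2 fold change 0.29 ± 0.09, adjusted p = 0.00915), Nsf (1.21 ± 0.11) and Dnm1 (1.22 ± 0.11), together with Cplx2 (0.36 ± 0.16, adjusted p = 0.0486) and Syt7 (0.98 ± 0.31, adjusted p = 0.0106). Cplx2 had a UMI in 40.9% and Syt7 in 41.5% of the connective tissue wells. Cplx2 was higher in 8 of 9 libraries and Syt7 in 7 of 9. Cplx2 did not pass when any of e15.5 libraries 1, 2, 4, 5, 6 or 8 was left out, with log2 fold changes of 0.31 to 0.40.

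Other sensory neuron wells, with Avil at 200 CPM or more and little collagen or Etv1, numbered 31, and libraries 1, 3 and 9 of e15.5 held 7 each. They summed to 7442 to 8570 CPM over the 39 genes, a range that overlapped that of the e15.5 proprioceptor sums. Single genes differed in both directions between the 2 kinds of sensory neuron. With the library as a block, 9 of 38 tested genes were higher in proprioceptor wells and 8 lower, where 5.89% and 5.61% of 11217 genes were called higher and lower and 11.5% in all. The median log2 fold change was 0.13. Sncb showed the largest difference, with 88.2, 99.9 and 117 CPM in proprioceptor against 3.78, 17.6 and 20.1 CPM in other sensory neuron wells (log2 fold change 2.77 ± 0.30, adjusted p = 0.000943). Sv2b had 117, 120 and 140 against 33.1, 45.4 and 47.7 CPM (1.58 ± 0.19, adjusted p = 0.00138), and Cplx1 had 851, 879 and 887 against 329, 389 and 473 CPM (1.14 ± 0.11, adjusted p = 0.000659). These 3 were higher in all 3 libraries, as were Dnm1 (0.98 ± 0.21, adjusted p = 0.0229) and Rab3c (0.94 ± 0.22, adjusted p = 0.0293), which lost their calls without e15.5 library 3 (both adjusted p = 0.107). Cplx2 was lowest by comparison, with 29.5, 33.8 and 44.7 against 154, 192 and 325 CPM (-2.55 ± 0.27, adjusted p = 0.000857), and Sv2c had 78.9, 118 and 154 against 303, 308 and 560 CPM (-1.74 ± 0.13, adjusted p = 0.000173). Syt7 (-1.53 ± 0.22, adjusted p = 0.00317), Syt2 (-1.35 ± 0.14, adjusted p = 0.000763) and Rims1 (-0.98 ± 0.16, adjusted p = 0.00601) were lower in proprioceptor wells of all 3 libraries too. For Syt2 these were 46.5, 51.4 and 51.5 against 121, 124 and 132 CPM. Without e15.5 library 3 the counts were 4 higher and 5 lower and the calls over all genes 842 in place of 1290. Syt1, Syp, Sv2a and Pclo made up the other higher genes, and Stx1a, Syt4 and Syt5 the other lower ones. The comparisons between ages and between kinds of well share the e15.5 proprioceptor sums. Sncb and Syt2 stood on opposite sides of other sensory neurons at e15.5, with log2 fold changes of 2.77 and -1.35, and both rose to p1, by 2.02 and 3.35.

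**Figure D4:**
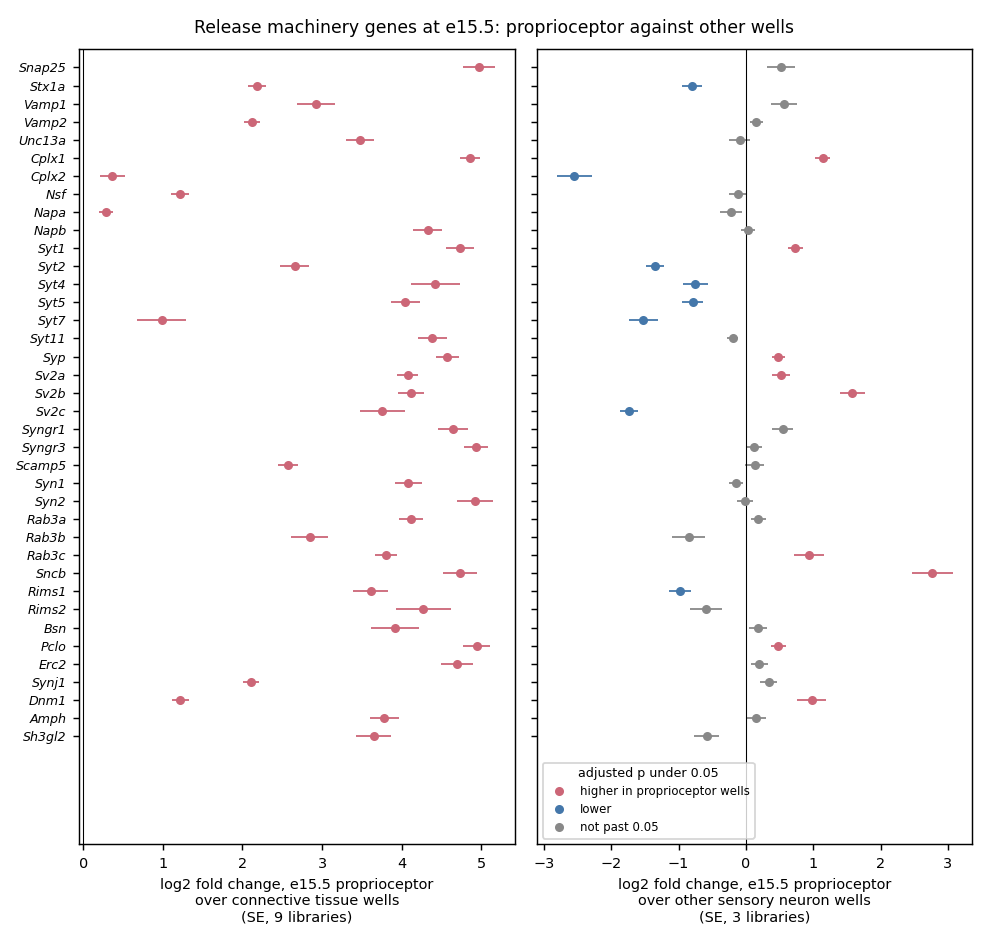
Log2 fold change of the 38 tested genes in e15.5 proprioceptor wells over connective tissue wells (left, 9 libraries) and over other sensory neuron wells (right, 3 libraries), with standard errors. All lie right of 0 on the left, from 0.29 for Napa to 4.97 for Snap25, and on both sides of 0 on the right, from -2.55 for Cplx2 to 2.77 for Sncb.

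Single wells showed how evenly the machinery was held among proprioceptors. Snap25 was found in 342 of 344 e15.5 wells, with a median of 327 CPM, and in all 356 p1 wells, with a median of 983 CPM. Napb was likewise found in 342 wells (median 244 CPM) and in all 356 (median 950 CPM). Syt2 was found in 273 e15.5 wells (79.4%) at a median of 30.2 CPM and in 349 p1 wells (98.0%) at a median of 326 CPM, although median depth fell from 111228.5 to 55768 UMIs. In connective tissue wells, which should lack it, Syt2 had a UMI in 14.6% of wells at a median depth of 28402 UMIs. Thinned to 10000 UMIs, it was found in 31.1% of e15.5 and 95.2% of p1 proprioceptor wells and 7.32% of connective tissue wells. Vamp1 went likewise from 43.0% to 89.6% of thinned wells (88.1% and 96.3% unthinned), against 4.07% of connective tissue wells. Rab3b went from 34.3% to 7.58% of thinned wells (82.6% and 28.1% unthinned), with 5.15% in connective tissue wells. Stx1a went from 68.6% to 24.2% of thinned wells (95.1% and 67.4% unthinned), with 17.9% in connective tissue wells. The p1 libraries held 0 connective tissue wells, so these shares in other cells were measured at e15.5 only.

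The spread over wells was measured in each library as the squared coefficient of variation (CV) beyond counting noise, where 0 means no more spread than counting gives. This estimate read low in simulated data (0.165 where 0.2 was put in). At e15.5, Syt2 had the highest median over the 10 libraries among the 31 genes that could be tested, 0.522 (0.0966 to 1.28), followed by Sv2b at 0.421 (0.0871 to 1.16), Syt7 at 0.388 (0.172 to 1.69), Sv2c at 0.272 (0.169 to 0.675) and Syt4 at 0.238 (0.0386 to 0.876). The lowest were Syn1 (0.0134), Rab3a (0.0152), Unc13a (0.0191), Vamp2 (0.0202) and Erc2 (0.0208). Cplx2 (0.335) and Rab3b (0.264) were also among the more variable at e15.5, but fell under 1 UMI per well in a p1 library and were not tested. Over e15.5 wells, Sv2c had median rank correlations of -0.446 with glia markers (-0.755 to -0.082 over libraries) and 0.431 with UMIs per well (0.247 to 0.67). For Sv2b these medians were -0.379 and 0.343, for Syt2 -0.0645 and 0.275, and for Syt7 -0.0417 and 0.248. Without glia-marked wells the e15.5 spread was 0.249 for Sv2c and 0.455 for Sv2b. The part of depth in the ranking was not tested. At p1, Syngr3 (0.335), Syt7 (0.205), Vamp1 (0.142), Sv2c (0.113) and Syn1 (0.110) had the highest medians over 6 libraries, and Syt11 (0.0226), Sncb (0.0251), Snap25 (0.0261), Syn2 (0.0266) and Vamp2 (0.0368) the lowest. Syt2 had a median of 0.0557 at p1 (0.0396 to 0.215) and Sv2b of 0.0438 (-0.103 to 0.0660). For Sv2b every p1 library lay below every e15.5 library, and for Syt2 the ages overlapped. The differences in median did not pass in a two-sided exact permutation test over libraries (8008 splits, adjusted p = 0.123 for Syt2 and 0.120 for Sv2b).

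That permutation test called 26.9% of 3002 genes, 25.4% as more variable at p1 and 1.50% as less variable. Of the 31 tested genes, Syngr3 (0.0314 and 0.335, adjusted p = 0.0196), Syn1 (0.0134 and 0.110, adjusted p = 0.0308), Napa (0.0215 and 0.0885, adjusted p = 0.0308) and Rab3a (0.0152 and 0.0825, adjusted p = 0.0348) were called more variable at p1 in the exact test. Sv2c was called less variable (0.272 and 0.113, adjusted p = 0.0308). The share of members called was below that of all genes tested. Without p1 library 3, 36 of the genes could be tested over 3003 splits, Syngr3, Syn1, Napa, Rab3a and Bsn were called more variable at p1 (exact permutation test, adjusted p = 0.0305 each) and Sv2c was not called (adjusted p = 0.0875). The p1 median of Syngr3 was then 0.143. Leaving out p1 library 1, 2, 4, 5 or 6 instead left 311 to 421 genes called in all, and Syngr3 alone of the 31 as more variable. Napa was also not called without e15.5 library 1, 2, 6, 7, 8 or 10 (exact permutation test, adjusted p = 0.0598 to 0.0634), Rab3a without e15.5 library 10 (0.0513) and Sv2c without e15.5 library 4 (0.0548). With wells thinned to 10000 UMIs the exact test called 0 of 853 genes, with 135 under an unadjusted p of 0.05. The p1 median was then higher by 0.170 for Rab3a and 0.148 for Syn1, against 0.0674 and 0.0969 with all UMIs (exact permutation test, adjusted p = 0.348 and 0.308). Without the glia-marked wells, 13 libraries had enough wells, and the exact test called 0 of 5818 genes, with 1646 under an unadjusted p of 0.05. Rab3a (0.0942 higher at p1), Syn1 (0.0717), Syngr3 (0.0854) and Scamp5 (0.0592) then shared the smallest p that any gene reached in the exact test, 0.00777, with 750 genes in all (adjusted p = 0.0603), so no gene could be called. Glia-marked wells, with the glia markers at 500 CPM or more in sum, numbered 3 to 19 per library at both ages.

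**Figure D5:**
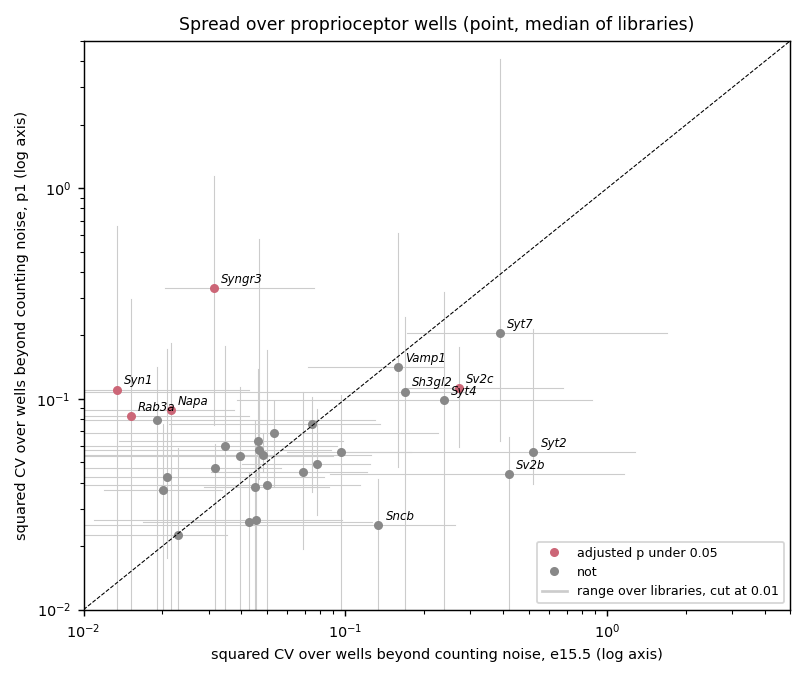
Squared coefficient of variation over wells beyond counting noise for 31 genes, at e15.5 (horizontal) and p1 (vertical), both on log axes, as the median over libraries with grey lines for the range, cut at 0.01. Syt2, Sv2b and Sncb lie well below the line of equal spread but did not pass (exact permutation test, adjusted p = 0.123, 0.120 and 0.140). Sv2c, called less variable at p1, also lies below it, and the 4 genes called more variable at p1 lie above it.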

How the data were processed

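The authors used the R package scruff to demultiplex, map and count reads of CEL-Seq2 libraries, and the deposited values are these UMI counts per gene and well, not normalized. The submitters' processing notes name the builds mm10 and GRCm38. The annotation and the use of strand in counting were not given in the sources used here. Of 49671 Ensembl IDs, 49412 matched GENCODE M21, which gave symbols and places (GRCm38). Samples were grouped by the age in their titles. The labels give no thoracic or lumbar level for a library, and both mouse lines for every p1 library, so level and line were not compared.

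UMIs of proprioceptor wells were summed per library (at least 5 wells), since wells of 1 library are not independent. Sums were tested with edgeR (version 4.0.16) in R (version 4.3.3): filterByExpr, TMM, glmQLFit and glmQLFTest, Benjamini-Hochberg adjustment over all genes tested, threshold 0.05. CPM are per 1000000 UMIs of a sum. Fold changes are those of the TMM-scaled fit. Within e15.5 the library was a block, since both kinds of well came from the same plates. Spread over wells was estimated by moments in libraries with at least 10 proprioceptor wells, for genes with a mean of at least 1 UMI per well in each, and tested by a two-sided exact permutation test over libraries. Python (version 3.11.15), NumPy (version 2.4.6), pandas (version 2.3.3), SciPy (version 1.17.1) and Matplotlib (version 3.10.9) were used. Doublets were not removed, and wells with glia transcripts were left out only as an alternative.

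Counts were simulated from the real sums, with 100 genes changed 2-fold and 100 changed 4-fold, as many up as down. On these, the test between ages recovered 76% of genes changed 2-fold and 93% of those changed 4-fold among 13979 genes. Of its calls, 8.15% were of unchanged genes. For connective tissue wells the test recovered 83% and 91% among 11784 genes, and for other sensory neuron wells 47% and 89% among 11217. In the real data 62.6% of genes were called between the ages, so the simulated rates may not hold there. Limits from a count of 0 are 3 counts of the total and cover counting error only.

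Alternatives were DESeq2 (version 1.42.0), total UMIs in place of TMM, no filter on low counts, the library number as a block, wells thinned to 10000 UMIs, wells of at least 20000 UMIs, the quantile filters of the study's methods (0.3 for UMIs and genes, 0.75 for the mitochondrial share), no glia-marked wells, and each library left out in turn. The 39 genes, the role lists, the other pathway genes, the motifs and the rules for wells were chosen with earlier results of these data known. Genes past the threshold were named by absolute fold change together with the member of each role with the highest CPM. Against other wells, the 5 largest and 5 smallest fold changes were named, of the other pathway genes the 5 smallest adjusted p in each direction (1 of these is not reported here), and for spread the 5 highest and 5 lowest at each age.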

Additional observations from a re-analysis of the deposited data

Results flagged for a closer look

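Within a group of libraries, a value far from all others was looked for in each of the 39 genes at each age, by Dixon's test at its 95% level. It marked 9 of 78 groups, where chance marks about 1 in 20. In p1 library 3, the shallowest, CPM were high for Vamp1 (629, next 384), Cplx1 (1853, next 1303), Syt5 (34.0, next 19.5) and Syn3 (11.3, next 6.16) and low for Unc13a (68.0, next 90.9) and Sv2b (164, next 255). These rested on 111, 327, 6, 2, 12 and 29 UMIs. In p1 library 4, Bsn lay at 31.7 CPM, with the next library at 44.9. In e15.5 library 6, Syngr1 lay at 55.9 CPM (next 78.7) and Syn3 at 10.5 CPM (next 5.49). None of these changed whether the ages overlapped for the 6 genes named for p1 library 3.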

How the results depend on the processing

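Of the counts and shares, 170 values under an alternative stayed within the spread or within 1.5 times the reported value and 30 did not. Of the single genes, 1106 values kept their direction and their side of the threshold, 78 lost a call, 12 gained one and 6 changed sign. Between the ages DESeq2 called the same numbers of the 39 genes, 27 higher and 6 lower. With wells thinned to 10000 UMIs, 4222 of 7759 genes were called in place of 8757 of 13979, fewer genes being tested, with 26 of the 39 higher and 6 lower. Against other sensory neurons, 2119 genes were called with no filter on low counts, where 25208 were tested, and 5 of the 39 were higher without a replicate block. Of the genes that did not pass, 4 changed sign. With total UMIs in place of TMM, the log2 fold changes of Erc2 and Amph were -0.17 and -0.017. Erc2 stood at -0.045 with no filter on low counts, and between -0.0059 (without p1 library 4) and 0.12 with 1 library left out, and rose to 0.56 (adjusted p = 0.0086) with thinned wells. Syt4 stood at 0.21 with thinned wells. For the spread over wells, thinning and leaving out glia-marked wells each gave 0 calls. Of the 39 genes, 17 could be tested with thinned wells and 35 without glia-marked wells. Syngr3, Napa and Sv2c, called with all UMIs, could not be tested with thinned wells. Without glia-marked wells 750 genes shared the smallest p reached, 0.00777 in the exact permutation test, which adjusts to 0.0603. The cause under thinning was not tested. The share of Napa in Napa and Napb moved by -27.8 points with thinned wells (-24.8 in all UMIs), and that of Syngr1 by 27.1 (22.0).

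Leaving out 1 library at a time gave 8174 to 9129 calls between the ages, with 26 to 28 of the 39 genes higher and 5 to 7 lower. It gave 8838 to 9291 calls against connective tissue wells, with 37 to 38 higher and 0 lower. It gave 842 to 1260 against other sensory neuron wells, with 4 to 9 higher and 5 to 9 lower. For the spread it gave 311 to 1134, with 1 to 5 of the 39 more variable at p1 and 0 to 1 less.

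Libraries 1 to 6 of both ages share numbers only. Deviations of same-numbered libraries from their age means had correlations of -0.279 to 0.295 over 2000 genes in 6 pairs, and 0 of them correlated best with their own number. A fit with the number as a replicate block called 6900 genes, 24 of the 39 higher and 4 lower, and put Syn1 at 0.010. Embryos and pups are different animals, so this block is not used. Depth limits Syn3 throughout, and Rab3b, Syt5 and Stx1a in single p1 wells.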
